A study of Mus musculus with 11 samples.

Results

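The collagen genes of the testis were taken as every gene row of the deposited count tables whose symbol is Col, a number, the letter a and a number, with nothing after it. This gave 43 genes of 33188 gene rows, and they were divided by the trimer they build into 11 fibrillar, 6 basement membrane and 26 other collagens. They were measured by poly-A RNA sequencing of whole testes of mice at P5 (postnatal day 5), in 11 libraries of 4 genotypes. WT testes gave 2 libraries, and Dnmt3C KO (Dnmt3CKO/KO, homozygous for a null allele of a DNA methyltransferase of male germ cells), Nrf1 cKO and dKO testes gave 3 each. Nrf1 cKO is labelled Nrf1KO/KO, and by the study's methods these mice carried a floxed and a null allele of the transcription factor gene Nrf1 with Ddx4-Cre (Vasa-Cre), a driver that is active in germ cells, so that the somatic cells kept the floxed allele. The dKO carried both mutations, the controls were littermates where possible, and the background was C57Bl6/J. The comparisons here address what happens to the collagen mRNAs of a tissue in which the floxed Nrf1 allele is deleted in germ cells. The stroma of Nrf1 cKO and dKO testes carried the inherited null allele beside the floxed one, so it was not wild type for Nrf1. The labels name germ cells and somatic cells as the material, and the titles name germ cells alone.

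Collagens are secreted proteins in which chains of repeated glycine triplets wind into a triple helix. Types I, III and V form the banded fibrils of connective tissue, type IV forms the sheet of basement membranes, and type VI forms beaded filaments that lie between them. In the testis, basement membrane surrounds each seminiferous tubule and is made by Sertoli cells and peritubular myoid cells, while fibroblasts and other stromal cells make the fibrillar matrix between the tubules. Other types attach to fibrils (IX, XII, XIV), span the cell membrane (XIII, XVII, XXIII, XXV) or join basement membrane to matrix (VII, XV, XVIII).

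Each library held between 26063590 and 39365841 counts, and levels below are CPM, the read counts of a gene scaled to library size, with edgeR's TMM factors over the 11 libraries to even out composition. Nrf1 stood between 44.4 and 61.2 CPM and Dnmt3c between 2.98 and 4.97 CPM over all libraries. For each gene, the libraries of genotypes in which it was targeted overlapped the others, and Nrf1 was higher in the 3 dKO libraries (57.1 to 61.2 CPM) than in the 3 of Dnmt3C KO (44.4 to 56.6 CPM), so whole-testis mRNA of the targeted genes did not check the labels. Summed over 20 germ cell marker genes, of which Dppa3 was at 0 in at least 1 library, the level was 450 to 567 CPM in WT, 464 to 819 CPM in Dnmt3C KO, 180 to 316 CPM in Nrf1 cKO and 221 to 493 CPM in dKO. In a bulk sample, fewer cells of a type and less RNA per cell cannot be told apart. Markers of the cells that make collagen were all detected: 10 of 10 genes of peritubular myoid cells summed to 2421 to 3526 CPM over all libraries, 10 of 10 genes of interstitial fibroblasts to 1739 to 3085 CPM, and 15 of 15 Sertoli cell genes to 5440 to 9760 CPM, none of them at 0 in any library. Of 6 cartilage markers, Hapln1, Sox5 and Acan averaged 17.7, 8.64 and 4.68 CPM. Comp, Chad and Matn1 were under 1 CPM on average, and Matn1 was at 0 in at least 1 library.

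The collagens covered a range from 391 CPM per kilobase of exon for Col3a1 to 0.024 for Col19a1, on the scale used here to compare levels between genes. At or above 100 CPM per kilobase were 7 genes, in the order Col3a1 (391), Col1a1 (350), Col6a1 (309), Col1a2 (250), Col4a1 (235), Col4a2 (155) and Col6a2 (139). Another 14 stood from 10 to under 100, 10 from 1 to under 10 and 12 under 1 CPM per kilobase. Only 9 of the 42 steps between neighbours in this order were wider than the larger within-genotype SD of the genes compared. That measure leaves out that the genes vary together, and Col4a2 over Col6a2, a narrower step, held in 10 of 11 libraries. Col3a1 was above Col1a1 in 8 libraries and Col1a1 above Col6a1 in 9, so the order of the 3 leading genes varied between libraries. All 43 genes together made up 1.41% to 2.23% of the counts of a library. Col3a1, Col1a2 and Col1a1 alone carried 51.1% of the collagen CPM, and with Col4a1, Col6a1, Col6a2 and Col4a2 the share was 80.4%. Among the scarcest were Col2a1, the main fibrillar collagen of cartilage, and Col8a1, a collagen of vessel walls and the cornea, each at 0.121 CPM per kilobase.

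**Figure D1:**
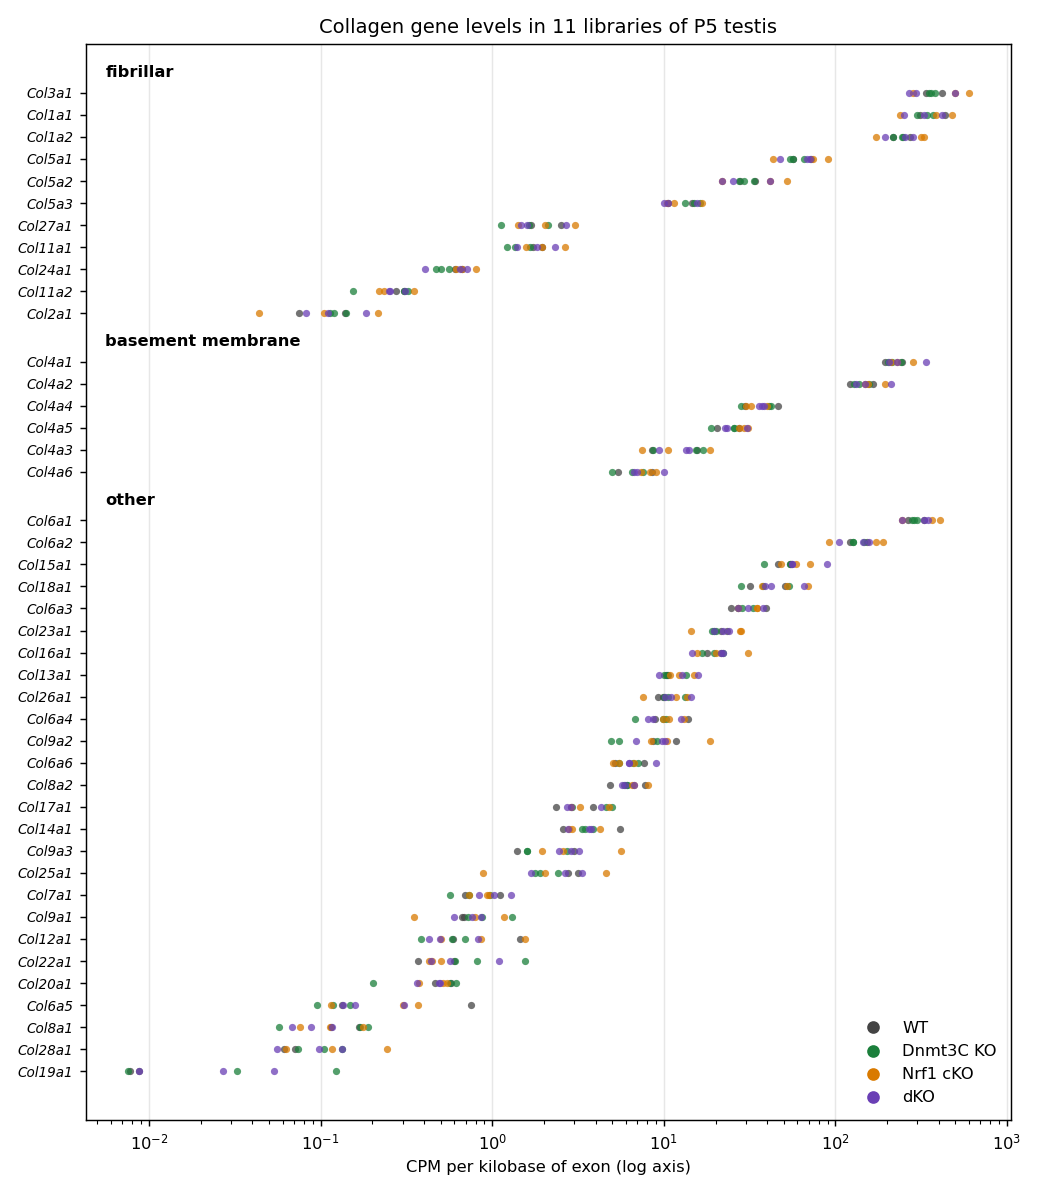
Level of each of the 43 collagen genes in each of 11 libraries, as CPM per kilobase of exon on a log axis, with points coloured by genotype and genes ordered by mean level within their class. The libraries of a genotype lie among those of the others for nearly every gene; Col19a1 lacks points for its 3 libraries at 0, all of Nrf1 cKO.

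The fibrillar collagens were led by the chains of types III and I. Col3a1 (chr1:45311538-45349706, GRCm38, GENCODE M21), the single chain of type III, measured 4105 and 3314 CPM in the WT libraries, 3754, 3527 and 3460.1 CPM in Dnmt3C KO, 4915, 5894 and 2784 CPM in Nrf1 cKO and 2629, 2906 and 4901 CPM in dKO. The highest and the lowest but 1 of the 11 values therefore came from the same genotype, Nrf1 cKO, and every pair of genotypes overlapped. Col1a1 (chr11:94936224-94953042), the chain present as a pair in each type I trimer, was at 2850 and 2038 CPM in WT, at 2233, 1950 and 2423 CPM in Dnmt3C KO, at 2533, 3127 and 1555 CPM in Nrf1 cKO and at 1644, 2151 and 2736 CPM in dKO. Col1a2 (chr6:4504814-4541544), its partner chain, gave 3383 and 2676 CPM in WT, 3033, 2708 and 3087 CPM in Dnmt3C KO, 3930.3, 4100 and 2137 CPM in Nrf1 cKO and 2402, 3175 and 3531 CPM in dKO. In both type I genes the third Nrf1 cKO library was the lowest of all 11 and the second was the highest. At these depths counting adds little: the library with the fewest Col3a1 reads held 72216 of them, a counting error of 0.372%.

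The minor fibrillar chains of type V, which copolymerise with type I and set the width of its fibrils, were less abundant and just as variable. Col5a1 (chr2:27886425-28039514) stood at 610.0 and 482 CPM in WT, 460.3, 483 and 560.3 CPM in Dnmt3C KO, 773, 627 and 367 CPM in Nrf1 cKO and 403, 600.3 and 581 CPM in dKO. Col5a2 (chr1:45374321-45503282), which lies tail to tail with Col3a1, gave 326 and 267 CPM in WT, 279.5, 262 and 323 CPM in Dnmt3C KO, 500.1, 400.1 and 209 CPM in Nrf1 cKO and 208, 242 and 399.6 CPM in dKO. The first and second Nrf1 cKO libraries and the third dKO library were high for Col5a2, and the third Nrf1 cKO and first dKO libraries were low, as they were for Col3a1. Col5a3, the third type V chain, ranged from 10.1 to 16.7 CPM per kilobase. Of the rest of the class, Col27a1 and Col11a1 averaged 1.94 and 1.78 CPM per kilobase, and Col24a1, Col11a2 and Col2a1 stayed under 1.

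The RefSeq start regions of a pair of leading fibrillar genes are shown because they differ in base composition. Each runs 5′ to 3′ from 250 bases before to 50 bases after the annotated start (GRCm38.p6, both on the plus strand), and capitals mark TATAAA on either strand, the letters CCAAT on either strand, and the letters GGGCGG on either strand. The Col3a1 window (chr1:45311288-45311587) is 37.7% G and C with 0 CpG and holds TATAAA, while that of Col1a2 (chr6:4505368-4505667) is 61% G and C with 13 CpG and holds CCAAT as well as GGGCGG.
Col3a1: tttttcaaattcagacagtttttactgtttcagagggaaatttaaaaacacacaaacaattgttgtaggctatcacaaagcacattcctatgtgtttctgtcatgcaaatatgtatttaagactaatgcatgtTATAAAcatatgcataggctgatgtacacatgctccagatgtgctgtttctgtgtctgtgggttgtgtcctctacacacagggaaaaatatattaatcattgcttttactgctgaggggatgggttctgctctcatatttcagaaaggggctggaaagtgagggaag
Col1a2: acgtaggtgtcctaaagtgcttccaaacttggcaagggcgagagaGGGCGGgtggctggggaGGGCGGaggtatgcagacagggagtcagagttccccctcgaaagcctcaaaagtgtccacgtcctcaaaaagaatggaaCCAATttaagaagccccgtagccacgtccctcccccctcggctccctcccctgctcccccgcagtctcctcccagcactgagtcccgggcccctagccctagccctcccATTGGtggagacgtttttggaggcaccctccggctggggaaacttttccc

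The basement membrane class consists of the 6 type IV chains, whose genes lie in 3 head-to-head pairs. Col4a1 (chr8:11198423-11312826), which with Col4a2 makes the type IV trimer of nearly all basement membranes, measured 1815 and 1442 CPM in WT, 1504, 1598 and 1794 CPM in Dnmt3C KO, 2112, 1709 and 1573 CPM in Nrf1 cKO and 1529.7, 2521 and 1709 CPM in dKO. Col4a2 (chr8:11312805-11449287) followed with 1089 and 804 CPM in WT, 853, 904 and 1042 CPM in Dnmt3C KO, 1294, 979.8 and 1025 CPM in Nrf1 cKO and 876, 1398 and 984 CPM in dKO. The second dKO library was the highest for both genes, and all genotypes overlapped. The chains of the alternative networks, known from the kidney glomerulus, were also present. Col4a4 (chr1:82448423-82586849) was at 489 and 316 CPM in WT, 435, 300.0 and 445 CPM in Dnmt3C KO, 319.8, 342 and 425 CPM in Nrf1 cKO and 395, 381 and 409 CPM in dKO. Col4a5 (chrX:141475385-141689234) gave 185 and 137 CPM in WT, 173, 127 and 172 CPM in Dnmt3C KO, 208, 196 and 185 CPM in Nrf1 cKO and 153, 158 and 206 CPM in dKO. For Col4a5 the 3 Nrf1 cKO libraries lay above the 3 of Dnmt3C KO, and WT and dKO lay across both. Col4a3 averaged 12.6 and Col4a6 averaged 7.40 CPM per kilobase.

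The annotated starts of Col4a1 and Col4a2 are 21 bases apart on opposite strands, and the 5′ ends of the genes overlap, so that each gene's upstream sequence lies inside the other gene and the windows share 78 bases. The windows (Col4a1 chr8:11312777-11313076, minus strand; Col4a2 chr8:11312555-11312854, plus strand) are 74.0% and 73.7% G and C with 37 and 33 CpG, and the capitals have the meaning given for Col3a1.
Col4a1: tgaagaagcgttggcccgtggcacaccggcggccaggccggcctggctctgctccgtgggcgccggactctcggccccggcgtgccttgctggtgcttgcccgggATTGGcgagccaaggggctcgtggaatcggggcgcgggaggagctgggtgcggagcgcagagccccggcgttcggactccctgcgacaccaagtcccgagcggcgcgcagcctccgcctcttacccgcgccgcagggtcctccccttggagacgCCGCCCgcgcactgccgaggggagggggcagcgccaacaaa
Col4a2: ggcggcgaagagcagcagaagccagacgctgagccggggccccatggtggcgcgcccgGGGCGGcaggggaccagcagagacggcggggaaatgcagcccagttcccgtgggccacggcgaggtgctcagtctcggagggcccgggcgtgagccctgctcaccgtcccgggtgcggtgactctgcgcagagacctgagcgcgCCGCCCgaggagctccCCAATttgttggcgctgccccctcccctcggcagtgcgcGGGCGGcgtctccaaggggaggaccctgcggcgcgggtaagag
Over all collagens, RefSeq gave 37 start regions for 34 of the 43 genes, with a median of 60% G and C and 12 CpG against 52.7% and 7 over all 32851 regions of this length. On either strand, GGGCGG was in 23 of the 37 (62.2%, against 35.7% of all regions), CCAAT in 13 (35.1%, against 37.4%) and TATAAA in 4 (10.8%, against 13.6%; Col3a1, Col11a2, Col13a1 and Col17a1). GCGCATGC, the core of the motif that NRF1 binds, was in 0 of 37, against 2.71% of all regions. A match or its lack describes these letters in these windows only.

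Among the other collagens, type VI was the most abundant. Col6a1 (chr10:76708792-76726168) measured 1446 and 1162 CPM in WT, 1227, 1250.0 and 1306 CPM in Dnmt3C KO, 1789.6, 1609.9 and 1068 CPM in Nrf1 cKO and 1063, 1428 and 1525 CPM in dKO. Col6a2 (chr10:76595762-76623630) was at 1275 and 1006 CPM in WT, 1051, 1058 and 1219.5 CPM in Dnmt3C KO, 1568, 1433 and 764 CPM in Nrf1 cKO and 875, 1303 and 1212 CPM in dKO. Both genes were low in the third Nrf1 cKO and the first dKO library, and no genotype lay apart. Col6a3 (chr1:90765923-90843971), the large chain that completes the common type VI trimer, gave 468 and 296 CPM in WT, 339.5, 326 and 397 CPM in Dnmt3C KO, 416, 418 and 323 CPM in Nrf1 cKO and 322, 372 and 450.5 CPM in dKO. The 2 WT libraries enclosed the values of all 9 mutant libraries. The alternative chains were lower, with Col6a4 at 10.2, Col6a6 at 6.43 and Col6a5 at 0.239 CPM per kilobase.

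The multiplexins Col15a1 and Col18a1, which lie at basement membranes and release endostatin-like fragments, came next. Col15a1 (chr4:47208161-47313167) stood at 344 and 294 CPM in WT, 243, 345 and 349 CPM in Dnmt3C KO, 451, 373 and 305 CPM in Nrf1 cKO and 356, 565 and 356 CPM in dKO. The 3 dKO libraries were above those of WT and of Dnmt3C KO without overlap, although 2 of them exceeded the highest Dnmt3C KO library by little. Col18a1 (chr10:77052178-77166548) was at 356 and 223 CPM in WT, 266, 378 and 198 CPM in Dnmt3C KO, 368, 262 and 485 CPM in Nrf1 cKO and 296, 462 and 273 CPM in dKO. Its highest library was the third of Nrf1 cKO, the one in which the fibrillar genes were lowest. The Sertoli cell markers were also highest in that library, with a summed 9760 CPM against 5440 to 7396 CPM in the other 10, and their part in this result was not tested.

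The membrane-spanning and fibril-bound genes had the next levels. Col23a1 (chr11:51289920-51583918), a membrane collagen, gave 124 and 133 CPM in WT, 112, 109 and 116 CPM in Dnmt3C KO, 159, 161 and 82.8 CPM in Nrf1 cKO and 113, 127 and 138 CPM in dKO. Col16a1 (chr4:130047840-130099283), a fibril-associated collagen, measured 146 and 120.3 CPM in WT, 132, 112 and 149.8 CPM in Dnmt3C KO, 208, 136 and 105 CPM in Nrf1 cKO and 98.8, 149 and 146 CPM in dKO. Within Nrf1 cKO both were lowest in the third library and spanned most of the range of the 11 libraries. Col13a1 (chr10:61838236-61979108), a membrane collagen of cell contacts, was at 48.7 and 47.6 CPM in WT, 48.0, 46.1 and 61.7 CPM in Dnmt3C KO, 69.3, 56.3 and 49.9 CPM in Nrf1 cKO and 43.3, 72.6 and 58.5 CPM in dKO. Its 3 Nrf1 cKO libraries lay above the pair of WT, with 49.9 CPM in the lowest of them against 48.7 CPM in the higher WT library.

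Summed over a class, the libraries of the 4 genotypes overlapped. The 11 fibrillar genes summed to 10170 ± 1795 CPM in WT (SD, n = 2), 9661 ± 524 in Dnmt3C KO (n = 3), 11434 ± 3764 in Nrf1 cKO (n = 3) and 9641 ± 2491 in dKO (n = 3). The single Nrf1 cKO libraries were at 12806, 14320 and 7176 CPM, which are the highest pair and the lowest value of the whole set. The basement membrane genes summed to 3315 ± 689, 3302 ± 322, 3643 ± 379 and 3758 ± 758 CPM in the same order of genotypes, and the other collagens to 4173 ± 752, 4007 ± 208, 4658 ± 1018 and 4358 ± 732 CPM. Dnmt3C KO had the narrowest spread of the 4 genotypes in each class, and Nrf1 cKO the widest in the fibrillar and other classes. The summed fibroblast markers, among which Dcn and Lum are themselves partners of collagen fibrils, were at 2796, 3085 and 1739 CPM in the Nrf1 cKO libraries and at 1942, 1941 and 2752 CPM in those of dKO. Within each of these genotypes they were lowest or highest in the library with the lowest or highest fibrillar sum (the third Nrf1 cKO and the third dKO library). In WT the order was the opposite, with 2281 CPM in the first library, whose fibrillar sum was 11439 CPM, and 2807 CPM in the second, at 8901 CPM; in Dnmt3C KO the markers were at 2486, 2371 and 2404 CPM. Their part in these differences was not tested.

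**Figure D2:**
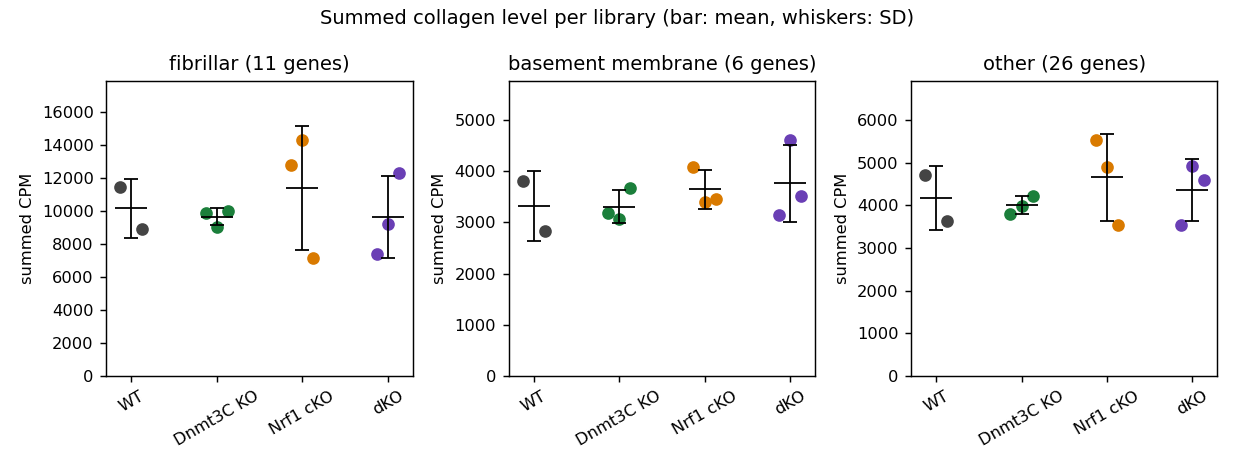
Summed CPM of the fibrillar, basement membrane and other collagen genes in each library (points) by genotype, with the mean (bar) and SD (whiskers), on axes that start at 0. The fibrillar sums of Nrf1 cKO run from 7176 to 14320 CPM and enclose those of every other genotype.

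No collagen gene passed the threshold between any pair of genotypes. With edgeR's quasi-likelihood test and Benjamini-Hochberg adjustment over genes together with transposable element (TE) subfamilies, 0 of the 42 collagens tested had an adjusted p under 0.01 in Dnmt3C KO over WT, Nrf1 cKO over WT, dKO over WT, dKO over Nrf1 cKO, dKO over Dnmt3C KO or Dnmt3C KO over Nrf1 cKO, and the share called among all features was 0% in each. The DESeq2 Wald test also called 0 of 43 collagens at that threshold in each of the 6, where it called 0.0751%, 0.079%, 0.012%, 0.0241%, 0.0567% and 0.634% of all features. These shares include low-count features that edgeR's filter removed. At an adjusted p under 0.05, DESeq2 called 2 collagens, Col19a1 and Col22a1, in Dnmt3C KO over Nrf1 cKO, where 1.06% of all features were called. At an unadjusted p under 0.05, the count of collagens was 6 in Dnmt3C KO over WT (1 above and 5 below WT), where 5.41% of all features tested were past this level. It was 0 in Nrf1 cKO over WT (5.75%), 0 in dKO over WT (1.74%), 0 in dKO over Nrf1 cKO (2.81%), 1 in dKO over Dnmt3C KO (7.18%) and 5 in Dnmt3C KO over Nrf1 cKO (10.6%). By DESeq2 the counts at this level were 7 of 43 (3.55% of all features), 0 (3.9%), 2 (1.21%), 2 (2.06%), 4 (4.75%) and 9 (7.26%) in the same order.

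The 4 genotypes were also fitted together, which allowed all 43 collagens to be tested for the effect of the Nrf1 deletion, of Dnmt3C loss and of their combination. Again 0 passed an adjusted p of 0.01 by edgeR's quasi-likelihood test, for the Nrf1 deletion (0.00443% of all features, which is 1 feature), for Dnmt3C loss (0%), for the interaction (0%) and for any difference among the 4 genotypes (0%), and 0 passed by DESeq2, which called 0.161%, 0.0934%, 0% and 0.376% of all features. At an unadjusted p under 0.05 there were 0 collagens for the Nrf1 deletion (8.53% of all features), 5 for Dnmt3C loss (2.92%; Col19a1 and Col22a1 higher, Col6a5, Col9a2 and Col12a1 lower), 0 for the interaction (5.55%) and 3 for any difference (6.06%). DESeq2 gave 2 (6.13% of all features), 5 (2.4%), 0 (4%) and 4 (5.08%). The median standard error of a collagen's log2 effect was 0.18 for each of the 2 main effects, and a confidence interval is wider than that on either side.

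For Col3a1, Col1a1 and Col4a1 the fitted differences from WT were smaller than their standard errors. Col3a1 had a log2 fold change of 0.27 ± 0.33 (SE) in Nrf1 cKO over WT, -0.06 ± 0.20 in Dnmt3C KO over WT and -0.10 ± 0.31 in dKO over WT. Col1a1 gave -0.05 ± 0.32, -0.16 ± 0.22 and -0.18 ± 0.28 in the same comparisons, and Col4a1 gave 0.12 ± 0.24, -0.01 ± 0.20 and 0.22 ± 0.27. Between mutants some exceeded them, with -0.34 ± 0.25 in Dnmt3C KO over Nrf1 cKO and -0.38 ± 0.33 in dKO over Nrf1 cKO for Col3a1 and 0.24 ± 0.19 in dKO over Dnmt3C KO for Col4a1, none with an unadjusted p under 0.05. By class, the median log2 fold change of the fibrillar genes was 0.11 in Nrf1 cKO over WT, -0.14 in Dnmt3C KO over WT and -0.08 in dKO over WT, and that of the basement membrane genes was 0.16, -0.04 and 0.13. Over all collagens it was 0.12, -0.06 and -0.02, against 0.02, 0.01 and 0.01 over all genes tested. These 3 comparisons share the WT libraries, and without the first WT library the medians were 0.34, 0.13 and 0.19 and without the second -0.06, -0.24 and -0.16. Cell type markers moved in the same comparisons. In Nrf1 cKO over WT the median log2 fold change was -1.30 for germ cells (14 of 19 genes lower at an unadjusted p under 0.05), 0.48 for Sertoli cells (3 of 15 higher) and 0.53 for endothelial cells (4 of 10 higher). Red blood cell genes were lower at that level for 7 of 7 in Dnmt3C KO over WT (-1.24) and in dKO over WT (-1.77), and summed to 655 and 2148 CPM in the 2 WT libraries. Their part in the collagen medians was not tested.

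Between mutants, the collagens stood lower in Dnmt3C KO than in Nrf1 cKO by a median log2 fold change of -0.22, with 31 of 42 genes below 0, against a median of -0.02 over all genes and 46.7% of genes above 0. The fibrillar median was -0.23 (9 of 11 genes below 0), the basement membrane median -0.19 (4 of 6) and that of the others -0.20 (18 of 25). Markers of several cell types also differed between these groups: the median log2 fold change was 1.55 for germ cells (14 of 19 genes at an unadjusted p under 0.05), -0.64 for endothelial cells (4 of 10), and -0.41 for Sertoli cells (2 of 15). It was 0.13 for peritubular myoid cells and 0.00 for interstitial fibroblasts (0 of 10 each). Their part in the collagen difference was not tested. Without the third Nrf1 cKO library the collagen median was -0.33, and without the first it was -0.09. In dKO over Nrf1 cKO the collagen median was -0.13, and it was 0.00 without the first Nrf1 cKO library. Germ cell markers were at 0.59 there (4 of 19 higher at that level) and endothelial markers at -0.74 (2 of 10 lower). In dKO over Dnmt3C KO the collagen median was 0.08, and -0.02 without the third dKO library. Marker medians there were -0.78 for germ cells (8 of 19 lower), 0.25 for Sertoli cells (3 of 15 higher), -0.30 for fibroblasts and -0.28 for myoid cells (2 of 10 lower each). Their part was not tested. The collagen genes are not independent of each other, since they vary together between libraries, and their shared sign is given as a description.

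**Figure D3:**
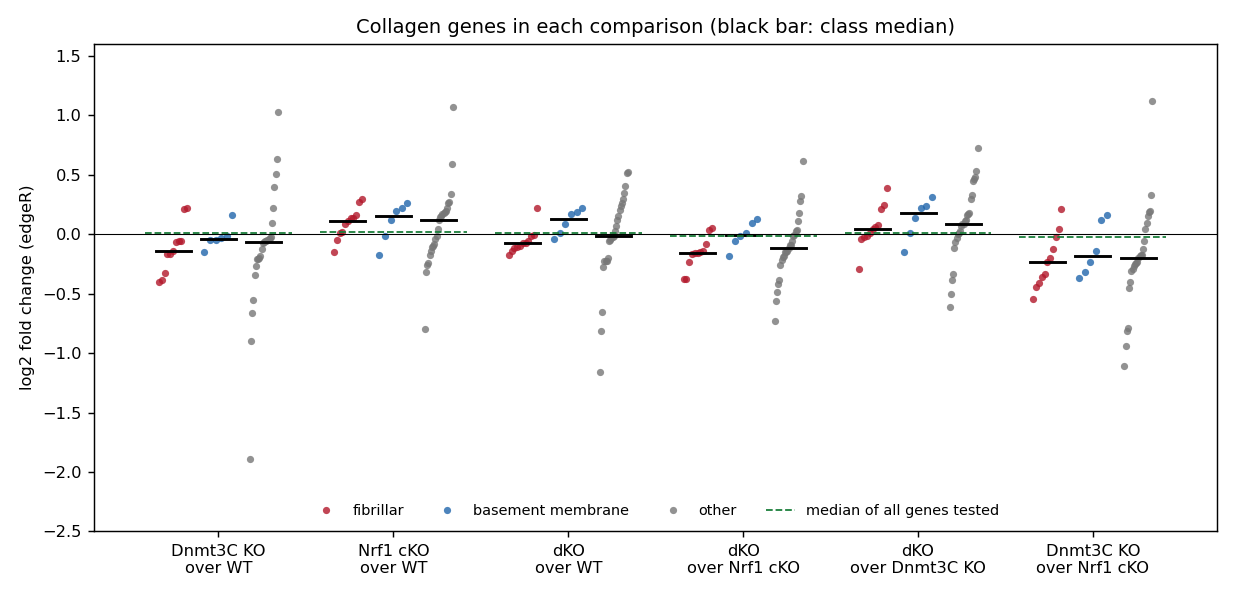
log2 fold change of each tested collagen gene (points, by class) in the 6 pairs of genotypes from edgeR, with the median of each class (black bar) and of all genes tested (dashed line). Class medians lie between -0.23 and 0.18, and the points far from 0 belong to the other class, down to -1.89 for Col6a5 in Dnmt3C KO over WT.

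The largest fitted differences belonged to scarce collagens, and several rested on 1 library. Col6a5, an alternative type VI chain, had the smallest p of the collagens in Dnmt3C KO over WT (log2 fold change -1.89 ± 0.56, adjusted p = 0.788 by edgeR's quasi-likelihood test). It measured 7.06 and 1.26 CPM in WT, 1.39, 1.11 and 0.893 CPM in Dnmt3C KO, 3.46, 1.08 and 2.85 CPM in Nrf1 cKO and 1.497, 2.89 and 1.27 CPM in dKO. The first WT library alone was high, and without it the log2 fold change went from -1.89 to -0.15 in Dnmt3C KO over WT and turned from -1.16 to 0.56 in dKO over WT. When features with low counts were kept in the test, Col6a5 was called in Dnmt3C KO over WT, with an adjusted p of 0.000123 where 0.475% of all features were called, the 1 call of a collagen in any setting at the threshold of 0.01, and the high first WT library was part of that fit. Col12a1, a fibril-associated collagen of tendon and muscle, was likewise high in the first WT library (22.0 CPM, against 8.997 in the second) and at 23.6, 13.1 and 7.63 CPM in Nrf1 cKO. It stood at 5.82, 8.86 and 10.6 CPM in Dnmt3C KO and at 6.52, 7.52 and 12.6 CPM in dKO, and its log2 fold change was -0.82 ± 0.39 in dKO over WT (adjusted p = 0.9996 by edgeR) and -0.73 ± 0.39 in dKO over Nrf1 cKO. For Dnmt3C loss over all libraries the log2 effect of Col6a5 was -1.14 ± 0.42 (adjusted p = 0.9999 by edgeR).

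Col22a1, a collagen of tissue junctions in muscle and skin, had the smallest p of a collagen in Dnmt3C KO over Nrf1 cKO. It was at 5.49 and 3.41 CPM in WT, 14.3, 5.57 and 7.53 CPM in Dnmt3C KO, 4.07, 3.93 and 4.63 CPM in Nrf1 cKO and 10.1, 5.19 and 4.05 CPM in dKO. The 3 Dnmt3C KO libraries were above those of WT and of Nrf1 cKO. The gap to WT was narrow, 5.57 against 5.49 CPM, and the first Dnmt3C KO library set most of the difference in mean. Its log2 fold change was 1.02 ± 0.39 in Dnmt3C KO over WT and 1.12 ± 0.34 in Dnmt3C KO over Nrf1 cKO (adjusted p = 0.285 by edgeR), with 0.62 ± 0.34 in dKO over Nrf1 cKO and 0.82 ± 0.29 for Dnmt3C loss. Col25a1, a membrane collagen of neurons, was below WT in Dnmt3C KO without overlap, with 35.5 and 41.0 CPM in WT and 23.0, 24.6 and 31.3 CPM in Dnmt3C KO (log2 fold change -0.55 ± 0.17, adjusted p = 0.788 by edgeR). In Nrf1 cKO its libraries were at 59.2, 26.2 and 11.4 CPM and in dKO at 21.7, 34.2 and 43.1 CPM, and the Nrf1 cKO range enclosed all others.

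Of the collagens best known from cartilage, Col9a2, Col9a3 and Col11a1 had an unadjusted p under 0.05 in at least 1 pair of genotypes, and Col9a1, Col2a1 and Col11a2 had none. In Dnmt3C KO over WT the log2 fold change of Col9a1, the other type IX chain, was 0.50 ± 0.31, that of Col2a1 0.21 ± 0.42 and that of Col11a2 -0.17 ± 0.38. Col9a2, a chain of the type IX collagen that decorates fibrils, stood at 36.3 and 26.8 CPM in WT, 17.0, 28.2 and 15.2 CPM in Dnmt3C KO, 57.8, 32.5 and 25.9 CPM in Nrf1 cKO and 21.2, 31.4 and 30.2 CPM in dKO. Its log2 fold change was -0.94 ± 0.32 in Dnmt3C KO over Nrf1 cKO and -0.66 ± 0.25 in Dnmt3C KO over WT. Its partner Col9a3 gave 11.6 and 5.38 CPM in WT, 6.10, 10.4 and 6.12 CPM in Dnmt3C KO, 9.92, 7.48 and 21.8 CPM in Nrf1 cKO and 12.3, 11.04 and 9.39 CPM in dKO. It was the 1 collagen under an unadjusted p of 0.05 in dKO over Dnmt3C KO (0.53 ± 0.23, adjusted p = 0.675 by edgeR), its log2 effect for the Nrf1 deletion was 0.57 ± 0.29, and within Nrf1 cKO its highest library was the one in which Col9a2 was lowest. Col11a1, a fibrillar chain of cartilage, was at 24.97 and 22.1 CPM in WT and at 15.6, 21.03 and 17.3 CPM in Dnmt3C KO, below WT without overlap (-0.40 ± 0.17), with 0.39 ± 0.19 in dKO over Dnmt3C KO and -0.54 ± 0.20 in Dnmt3C KO over Nrf1 cKO. The summed cartilage markers were 32.0 and 34.4 CPM in WT and 26.9 to 32.7 CPM in Dnmt3C KO, and their part in this difference was not tested.

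The remaining genes with the smallest p-values in a comparison had wider errors or lower levels. Col15a1 had the smallest p for the Nrf1 deletion (log2 effect 0.34 ± 0.16, adjusted p = 0.587 by edgeR), with 0.40 ± 0.24 in dKO over WT and 0.45 ± 0.20 in dKO over Dnmt3C KO. Col13a1 and Col4a5 each stood 0.26 higher on the log2 scale in Nrf1 cKO than in WT, with errors of 0.19 and 0.20, and Col28a1, a scarce collagen of glial cells, 1.07 ± 0.68 higher from 8 to 39 counts a library. Col6a6 was 0.32 ± 0.17 higher in dKO than in Nrf1 cKO. For the interaction, Col6a5 (1.51 ± 0.85), Col7a1 (0.55 ± 0.37), the anchoring fibril collagen, and Col28a1 (-1.20 ± 0.82) came first, each with an adjusted p of 0.903 or above by edgeR. Col19a1, a collagen of basement membrane zones, was counted 2 and 2 times in WT, 30, 2 and 7 times in Dnmt3C KO, 0 times in each Nrf1 cKO library and 13, 6 and 2 times in dKO. It had the smallest p for any difference among the genotypes (adjusted p = 0.664 by edgeR), on counts of which nearly all but the first Dnmt3C KO library and the first dKO library are within a few reads of 0.

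Over the 42 collagens with a count in every library, the highest library of the most variable genotype exceeded its lowest by a median factor of 1.96. The most variable genotype was Nrf1 cKO for 21 of the 42 genes, WT and Dnmt3C KO for 8 each and dKO for 5. Over the 4 genotypes the median within-genotype SD of log2 CPM was 0.36 for the collagens and 0.29 for the 21690 genes tested, of which 42.1% had an SD above the collagens' median. Col19a1 (1.08) and Col6a5 (0.89) had the widest spread and Col8a2 (0.21), a short-chain collagen of endothelial and corneal membranes, the narrowest, with 34.7 and 21.8 CPM in WT and 25.5 to 36.5 CPM in the mutants.

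Libraries that deviated did so for most fibrillar genes at once. Relative to the mean of its genotype, the third Nrf1 cKO library was lower for 9 of the 11 fibrillar genes by a median of -0.54 on the log2 scale, and the first dKO library for 11 of 11 by -0.35. The third dKO library was higher for 9 of 11 by 0.32, and the first Nrf1 cKO library for 9 of 11 by 0.27. The basement membrane genes did not deviate alike: in the third Nrf1 cKO library 4 of 6 were lower and 2 higher, with a median of -0.09, and the higher pair was Col4a3 and Col4a4. In the second Dnmt3C KO library 6 of 6 basement membrane genes were lower, by a median of -0.31, beside a fibrillar median of -0.12. The first WT library was above the second for 9 of 11 fibrillar, 6 of 6 basement membrane and 22 of 26 other collagens.

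**Figure D4:**
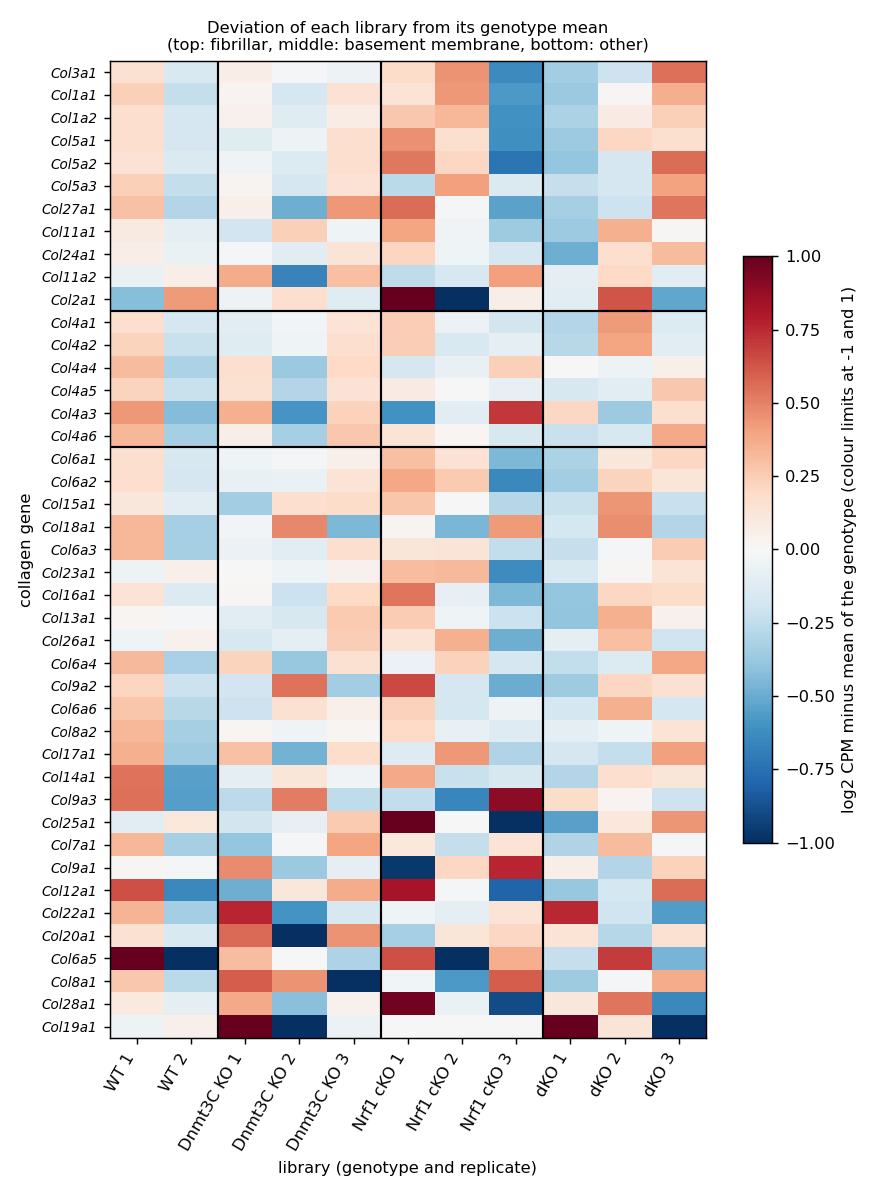
log2 CPM of each collagen gene in each library minus the mean of that genotype, from blue (lower) to red (higher), with genes in rows by class and libraries in columns. The third Nrf1 cKO and first dKO columns are blue over most fibrillar genes, with medians of -0.54 and -0.35, while the type IV rows are mixed there.

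Several pairs of chains that assemble together had steadier ratios than levels. Ratios were computed only for partner chains and neighbouring genes, so this steadiness is not shown to be particular to them. Col5a1 and Col6a2, of different types, also deviated alike from their genotype means. Their log2 deviations were -0.62 and -0.65 in the third Nrf1 cKO library and -0.37 and -0.35 in the first dKO library. The ratio of Col1a1 to Col1a2 per kilobase was 1.22 to 1.59 over the 11 libraries with a median of 1.39, and its log2 SD within genotypes was 0.10, against 0.37 and 0.34 for the genes themselves, which lie on different chromosomes. For Col4a1 and Col4a2, with the overlapping start regions shown above, the ratio was 1.36 to 1.599 (median 1.55, log2 SD 0.06, against 0.26 for each gene). It was 2.04 to 2.66 for Col6a1 to Col6a2, neighbours on chromosome 10 (log2 SD 0.12, against 0.27 and 0.36), and 3.05 to 3.94 for Col4a5 to Col4a6 (0.11, against 0.22 and 0.31), whose starts are 1309 bases apart. The lowest Col4a1 to Col4a2 ratio and the highest Col6a1 to Col6a2 ratio both came from the third Nrf1 cKO library.

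Not all pairs were as steady. Col4a3 and Col4a4, whose starts are 72 bases apart on opposite strands, had a ratio of 0.249 to 0.463 with a log2 SD of 0.31, wider than that of Col4a4 alone (0.27) and narrower than that of Col4a3 (0.53). Both extremes were Nrf1 cKO libraries, the first at the low and the third at the high end. Col3a1 to Col5a2 ran from 9.60 to 14.4 (log2 SD 0.19, against 0.41 and 0.45) and Col5a1 to Col5a2 from 1.64 to 2.81 (0.22, against 0.36 and 0.45), the latter with its lowest and highest values in the third and second dKO library. Libraries share their scaling, so a ratio is free of it while a level is not; the values are given as a description with no test.

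**Figure D5:**
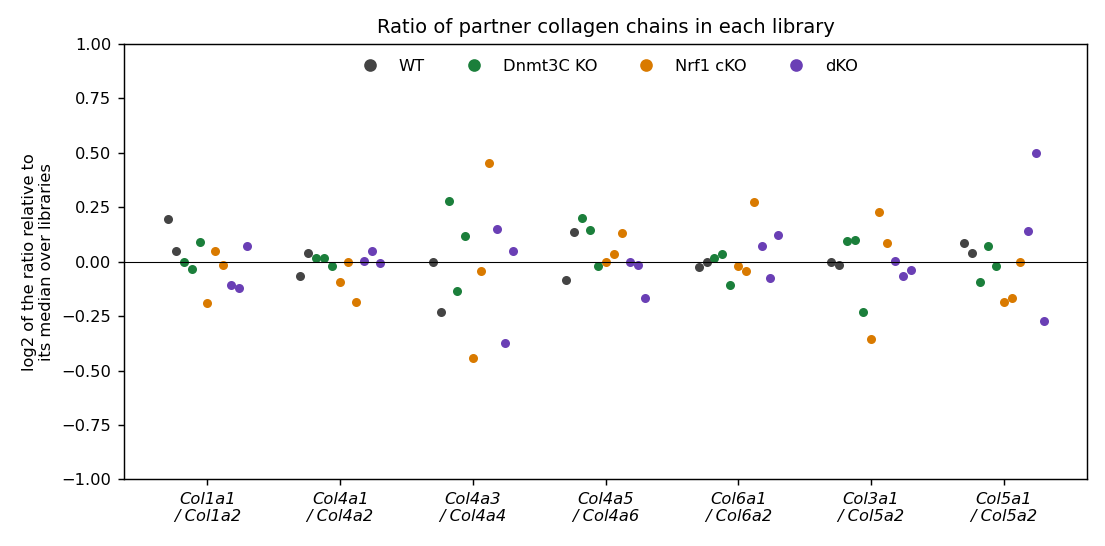
log2 of the per-kilobase ratio of 7 pairs of collagen chains in each library, relative to the median ratio of that pair, with points coloured by genotype. The points of Col4a1 to Col4a2 and Col1a1 to Col1a2 stay close to 0 (log2 SD 0.06 and 0.10 within genotypes), and those of Col4a3 to Col4a4 spread widest (0.31).

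The genes that make, bind and degrade collagen likewise had no call, and their levels differed widely, with Pcolce2, Kera, Mmp8 and Mmp13 under 1 CPM on average. Of 20 genes for folding and modification of the chains, 14 for processing and crosslinking, 13 for fibril-associated proteoglycans and matricellular proteins, 15 for basement membrane partners, 9 receptors and 13 for breakdown (12 of them measured), 0 were called in any of the 10 comparisons by edgeR's quasi-likelihood test. For the Nrf1 deletion, where 8.53% of all features had an unadjusted p under 0.05, this held for 4, 0, 0, 2, 0 and 2 genes of these lists, all of them higher. In Dnmt3C KO over Nrf1 cKO, where the share was 10.6%, it held for 3, 1, 2, 2, 1 and 2 genes, all lower but 1 of the proteoglycan and matricellular list. For the Nrf1 deletion, Sertoli markers were also higher at that level for 5 of 15 genes (median log2 effect 0.36) and germ cell markers lower for 14 of 19 (-1.09), and their part in these counts was not tested. Serpinh1, the collagen chaperone HSP47, averaged 1018 ± 121 CPM (SD, n = 11) and P4hb, a subunit of prolyl hydroxylase, 635 ± 75.3 CPM. Sparc, a collagen-binding matricellular protein, was at 2852 ± 315 CPM and the proteoglycan gene Bgn at 909 ± 107 CPM. The laminin genes Lamb1 and Lamc3 stood at 866 ± 114 and 551 ± 70.2 CPM.

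On the crosslinking, receptor and breakdown side, Pcolce, an enhancer of procollagen cleavage, averaged 276 ± 38.5 CPM, Loxl1, a lysyl oxidase, 137 ± 26.5 CPM, Itgb1, the shared beta chain of collagen-binding integrins, 659.6 ± 54.6 CPM, the collagen receptor kinase Ddr1 157 ± 49.9 CPM, the gelatinase Mmp2 336 ± 48.6 CPM and its inhibitor Timp2 258 ± 36.3 CPM. The gene of these lists with the smallest p was Mmp15, a membrane-type metalloproteinase, with a log2 effect of 0.54 ± 0.12 for the Nrf1 deletion (adjusted p = 0.25 by edgeR). The smallest p of the other lists were those of Fkbp10, a collagen chaperone, at -0.42 ± 0.12, Fmod, a fibril-bound proteoglycan, at 0.57 ± 0.15, the laminin gene Lama4 at -0.51 ± 0.14 and the integrin gene Itga2 at -1.23 ± 0.51 in Dnmt3C KO over Nrf1 cKO, and of Lox, the founding lysyl oxidase, at -0.46 ± 0.14 in Dnmt3C KO over WT. Their adjusted p by edgeR lay between 0.226 for Fmod and 0.824 for Lox.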

How the data were processed

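Whole-testis poly-A RNA was sequenced by the authors with a stranded kit; they aligned reads with STAR 2.7.3a to GRCm38 and GENCODE M25, counted genes and TE subfamilies with TEtranscripts in multi mode and left out 1 library of each genotype for poor RNA quality. The authors deposited raw counts in 6 pairwise tables beside their DESeq2 columns (fold changes and p-values), which were not used, nor was a table of TE copies. A library's counts were identical wherever repeated (683848 values, 0 differing). Groups and replicate numbers came from the labels, which do not name the animal behind a library, so p-values measure the spread between these libraries. Replicates differed by more than sampling noise (chi-square per degree of freedom 19.5 to 69.2). The counts are reads, so depth sets counting error only.

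edgeR 4.0.16 in R 4.3.3 (filterByExpr, TMM, quasi-likelihood F test, Benjamini-Hochberg adjustment across genes plus TE subfamilies, threshold 0.01) was run on each pair's libraries and on all 11 for the Nrf1 deletion, Dnmt3C loss, their interaction and any difference. SE is the absolute log2 fold change over the square root of F. Log2 CPM used a prior count of 1, and lengths are exon unions of GENCODE M21. Alternatives were DESeq2 1.42.0 (test and size factors), no filter on low counts, a threshold of 0.05, a replicate block, genes alone, 1 fit for all genotypes and leaving out each library. The fits were tested on simulated data in which 200 features changed by a log2 of 2. At the threshold of 0.01 edgeR recovered 50.5% to 74% of them, and 0% to 2.5% of its calls were false. DESeq2 recovered 55% to 81%, and 6.36% to 13.45% of its calls were false. Start regions are from RefSeq. Named genes were the most abundant of each class (5 fibrillar, 4 basement membrane, 8 other), any called gene, the 3 smallest p of each comparison, the extremes of spread and, of each pathway list, the called or smallest-p gene and the 2 most abundant. The members and lists were chosen with earlier results of these data known.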

Additional observations from a re-analysis of the deposited data

How the results depend on the processing

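The count of called collagens was 0 in each comparison under DESeq2, its size factors, the threshold of 0.05 with edgeR, genes alone, 1 fit for all genotypes, the replicate block and every fit that left out a library; without the filter on low counts it was 1 (Col6a5) in Dnmt3C KO over WT, at a log2 fold change of -1.88. With DESeq2 at 0.05, 2 collagens (Col19a1 and Col22a1) passed in Dnmt3C KO over Nrf1 cKO, with 1.06% of all features. The replicate numbers do not pair the libraries (same-number correlations of -0.329 to 0.282). Leaving out a library moved the median log2 fold change of the collagens from -0.2378 to 0.133 in Dnmt3C KO over WT, from -0.0551 to 0.3388 in Nrf1 cKO over WT and from -0.1632 to 0.1893 in dKO over WT, the upper ends without the first WT library; 1 WT library then remains and is assumed to vary like the others. Col6a5 ranged from -1.92 to 0.56 in dKO over WT and from -0.24 to 2.25 for the interaction, turning sign without that library; the cause was not tested beyond its level of 7.06 CPM there. With Col15a1 and Col18a1 counted as basement membrane, the class summed to 3923.5, 3896, 4392 and 4528 CPM in WT, Dnmt3C KO, Nrf1 cKO and dKO, and the other collagens to 3564, 3414, 3909.6 and 3589 CPM. With 2 or 3 libraries a genotype, the median SE of a collagen was 0.205 to 0.301 on the log2 scale in pairs of genotypes. It was 0.18 for the main effects over all 11 libraries and 0.365 for the interaction. Differences near these values were not detectable, and larger ones could be missed as well. In simulated counts with 200 features changed by a log2 of 2, edgeR at the threshold of 0.01 called 58.5% of them in Dnmt3C KO over WT. It called 60.5% in dKO over Nrf1 cKO, 74% for the Nrf1 deletion and 50.5% for the interaction.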
